A study of Homo sapiens with 8 samples.

Results

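The genes described here are 35 genes of glycolysis and of the transcriptional response to low oxygen, followed in Karpas299 cells after CD30 was bound by its ligand or by an agonistic antibody. They were chosen by name, with earlier results of these data known. They cover enzymes of every step from hexokinase to lactate dehydrogenase and kinases that set the flux through the pathway. Well-known targets and regulators of hypoxia-inducible factor (HIF) complete the list. A gene counted as measured where at least 1 of its probes had a detection p under 0.01 on at least 2 of the 8 arrays, and its brightest such probe stood for it. Of the 35 genes, 30 were measured, among 10183 features in all (8509 named genes and 1674 unnamed probes). No probe carried the name CA9 in the annotation used. The single probes of PDK1, EGLN3 and ADM were detected on 0 arrays and the 4 probes of MXI1 on at most 1, so no change is given for these 5 genes.

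Karpas299 is a human anaplastic large cell lymphoma line that carries CD30 and the NPM1-ALK fusion kinase. The cells grew for 16 h, and 3 of the 4 groups then received protein for 8 h without a change of medium. These were CD153(CD30L)-Fc, the CD30 ligand joined to an antibody Fc part and here called CD153-Fc, T104, an agonistic monoclonal antibody to CD30, and the combination. Every protein was used at 10 µg/ml, alone or combined. Each of the 4 groups had 2 biological duplicates, all from this 1 line. No group analysed here received an Fc part or an unrelated antibody alone, so effects of those and of CD30 binding cannot be told apart. The question was how the ligand and the antibody compare.

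Glycolysis breaks glucose down to pyruvate, which lactate dehydrogenase can turn into lactate, and many lymphoma cells run it at a high rate even with oxygen present. HIF is a pair of proteins whose alpha subunit, encoded by HIF1A, is marked for destruction by the oxygen-dependent hydroxylases of the EGLN family, so that the protein builds up when oxygen falls. Its known targets include many glycolytic enzymes and also genes outside metabolism, such as the vessel growth factor VEGFA. HIF activity is set largely by the stability of the HIF1A protein, which these arrays did not measure.

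The untreated duplicates differed from each other more than the treated pairs did. Their log2 values correlated across features at r = 0.977, against 0.993, 0.994 and 0.992 in the CD153-Fc, T104 and combination pairs. Mean intensity per array ran from 722 to 850, and the number of detected probes from 10713 to 12967, with untreated replicate 1 the highest. Of 8 markers of the line, 6 (ALK, IL2RA, MUC1, GZMB, PRF1 and CD4) were detected on all arrays, TNFRSF8, which encodes CD30, on 2, and NPM1 on 0. Markers of B cells, fibroblasts and epithelium were detected on 0 arrays, and of 4 myeloid markers CSF1R was detected on all arrays, ITGAM on 1 and CD14 and LYZ on 0. Because the untreated arrays disagree, comparisons with untreated cells are also given without each of them. The single untreated array left is then assumed to vary like the treated pairs.

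With T104, 5 hypoxia targets outside glycolysis rose together with PFKFB3 and PFKFB4, which regulate phosphofructokinase. Of 17 enzymes of the glycolytic steps 0 passed, a count near the share of all features called, given next. This 0 rests on the brightest probe of each gene, as a second probe of HK2 was called higher. In all, 7 of the 30 measured genes were higher with T104 than in untreated cells (23.3%, against 5.11% of all features) and 0 were lower (5.41% of all features were). These were PFKFB3, PFKFB4, VEGFA, BNIP3, NDRG1, ANKRD37 and DDIT4. With CD153-Fc plus T104 the same 7 genes and ALDOC were higher, 8 of 30 (26.7%, against 3.82% of all features), and 0 were lower (2.85% of all features). With CD153-Fc alone 0 of 30 passed in limma, where 1.1% of all features were higher and 0.275% lower. At an unadjusted p under 0.05 it gave 7 of 30 (23.3%, against 15% of all features), so the absence of calls does not show that the ligand left these genes as they were. The median change over the 30 genes was 0.08 log2 for CD153-Fc, 0.11 for T104 and 0.06 for the combination, beside 0.00, -0.02 and -0.02 over all features. These 3 comparisons share the untreated arrays. Because the genes were chosen with earlier results known, a share above that of all features is no independent test of them. The same holds for the further lists below.

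Counting only whether arrays overlapped, T104 arrays lay wholly above the untreated pair for 14 of the 30 genes and wholly below for 5, beside 24.1% and 27.4% of all features. With both agents the counts were 13 above and 5 below (22.5% and 24.7% of all features), and for CD153-Fc 8 and 5 (19.7% and 21.3%). At an unadjusted p under 0.05 there were 15 genes with T104 (25.7% of all features) and 11 with both (22.6%). EGLN1 is among the higher genes in each of these counts. It was detected on 2 arrays only and on none given T104, so its values there are background.

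**Figure D1:**
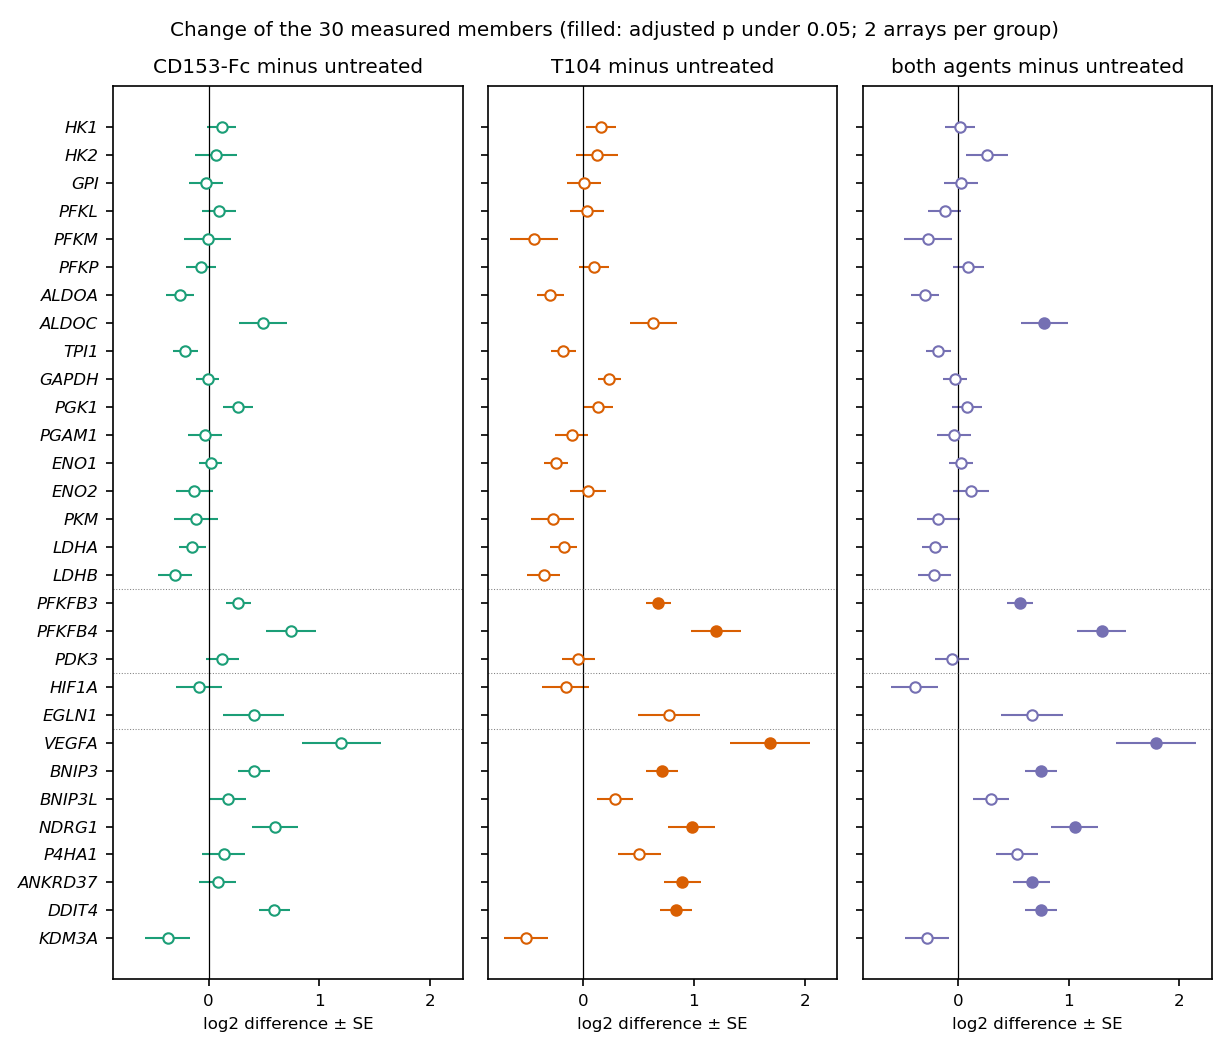
Log2 difference from untreated cells (horizontal axis, ± SE, 2 arrays per group) of the 30 measured genes under CD153-Fc, T104 and both agents, ordered by role, with dotted lines between roles and filled points for an adjusted p under 0.05. With T104 the filled points are the 7 genes named in the text, all to the right of 0, and with CD153-Fc there is none.

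Among the hypoxia targets outside glycolysis, 8 of 11 were measured, and 5 rose with T104 and 5 with both agents (5.11% and 3.82% of all features). VEGFA, BNIP3, NDRG1, ANKRD37 and DDIT4 were these targets. The median change of the 8 measured targets was 0.29 log2 for CD153-Fc, 0.77 for T104 and 0.71 for the combination.

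VEGFA showed the largest change of the 30 genes. Its log2 intensity was 6.54 and 8.11 in the untreated arrays, 8.58 and 8.46 in the CD153-Fc pair, 9.05 and 8.96 in the T104 pair, and 9.29 and 8.94 in the combination pair. Every treated array lay above both untreated arrays, and the untreated arrays lay far apart. The value in untreated replicate 1 was near background, as the lowest value of any detected probe on that array was 6.48. The size of the VEGFA changes against untreated cells rests in part on this value. VEGFA rose by 1.69 ± 0.36 (SE) with T104 (3.22-fold, adjusted p 0.00953) and by 1.79 ± 0.36 with both (adjusted p 0.0102). With CD153-Fc its difference was 1.20 ± 0.36 and did not pass (adjusted p 0.135). The size of the T104 change depended on which untreated array was used, 0.90 without replicate 1 and 2.47 without replicate 2, and it passed in both cases. It did not pass without either T104 array, or with only the untreated and T104 arrays in the fit.

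BNIP3, a mitochondrial protein that marks mitochondria for removal, had untreated arrays that agreed closely. They read 11.81 and 11.80, against 12.11 and 12.31 in the CD153-Fc pair, 12.39 and 12.64 in the T104 pair, and 12.50 and 12.61 in the combination pair. The groups given T104 lay above CD153-Fc, which lay above untreated cells, with no overlap. BNIP3 rose by 0.71 ± 0.14 with T104 (1.64-fold, adjusted p 0.00708) and by 0.75 ± 0.14 with both (adjusted p 0.00771). The T104 change was 0.71 without either untreated array. Its close relative BNIP3L, with the same role, was not called under any treatment, at 0.30 ± 0.16 with both.

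NDRG1, a gene induced by hypoxia and other stresses, read 9.97 and 10.73 untreated, 11.03 and 10.88 in the CD153-Fc pair, 11.43 and 11.23 in the T104 pair, and 11.40 and 11.41 in the combination pair. All treated arrays were above the untreated ones, which again lay apart, replicate 1 being the lower. NDRG1 rose by 0.98 ± 0.21 with T104 (1.97-fold, adjusted p 0.00975) and by 1.05 ± 0.21 with both (adjusted p 0.00981). The T104 change was 0.60 without untreated replicate 1 and 1.36 without replicate 2.

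ANKRD37, an ankyrin repeat protein whose gene is a direct HIF target, was the called gene with the smallest difference under CD153-Fc. It read 8.31 and 8.11 untreated, 8.32 and 8.26 in the CD153-Fc pair, 9.12 and 9.09 in the T104 pair, and 8.88 and 8.87 in the combination pair. The CD153-Fc arrays overlapped the untreated ones, and the arrays given T104 lay clear above both. ANKRD37 rose by 0.90 ± 0.17 with T104 (1.86-fold, adjusted p 0.00467) and by 0.67 ± 0.17 with both (adjusted p 0.0327), against 0.08 ± 0.17 with CD153-Fc. The call with both agents was lost in 8 of 17 alternatives, 6 of them fits with 1 treated array left out.

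DDIT4 restrains the growth kinase complex mTORC1 and responds to hypoxia and other stresses. By the brightest probe of each gene, it came closest to a call with the ligand. Its arrays read 11.45 and 11.64 untreated, 12.20 and 12.07 in the CD153-Fc pair, 12.46 and 12.30 in the T104 pair, and 12.28 and 12.31 in the combination pair. All treated arrays were above the untreated ones. The difference was 0.59 ± 0.14 with CD153-Fc (1.51-fold, adjusted p 0.0647), and DDIT4 rose by 0.84 ± 0.14 with T104 (1.79-fold, adjusted p 0.00243) and by 0.75 ± 0.14 with both (adjusted p 0.00698).

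The remaining targets in this group were not called. P4HA1, a collagen prolyl hydroxylase, stood 0.51 ± 0.19 above untreated cells with T104 (adjusted p 0.121) and 0.53 ± 0.19 with both (adjusted p 0.127), with arrays that did not overlap. KDM3A, a histone demethylase, stood at -0.52 ± 0.20 with T104 (adjusted p 0.126). P4HA1 passed with T104 when untreated replicate 1 was left out, and KDM3A when replicate 2 was.

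**Figure D2:**
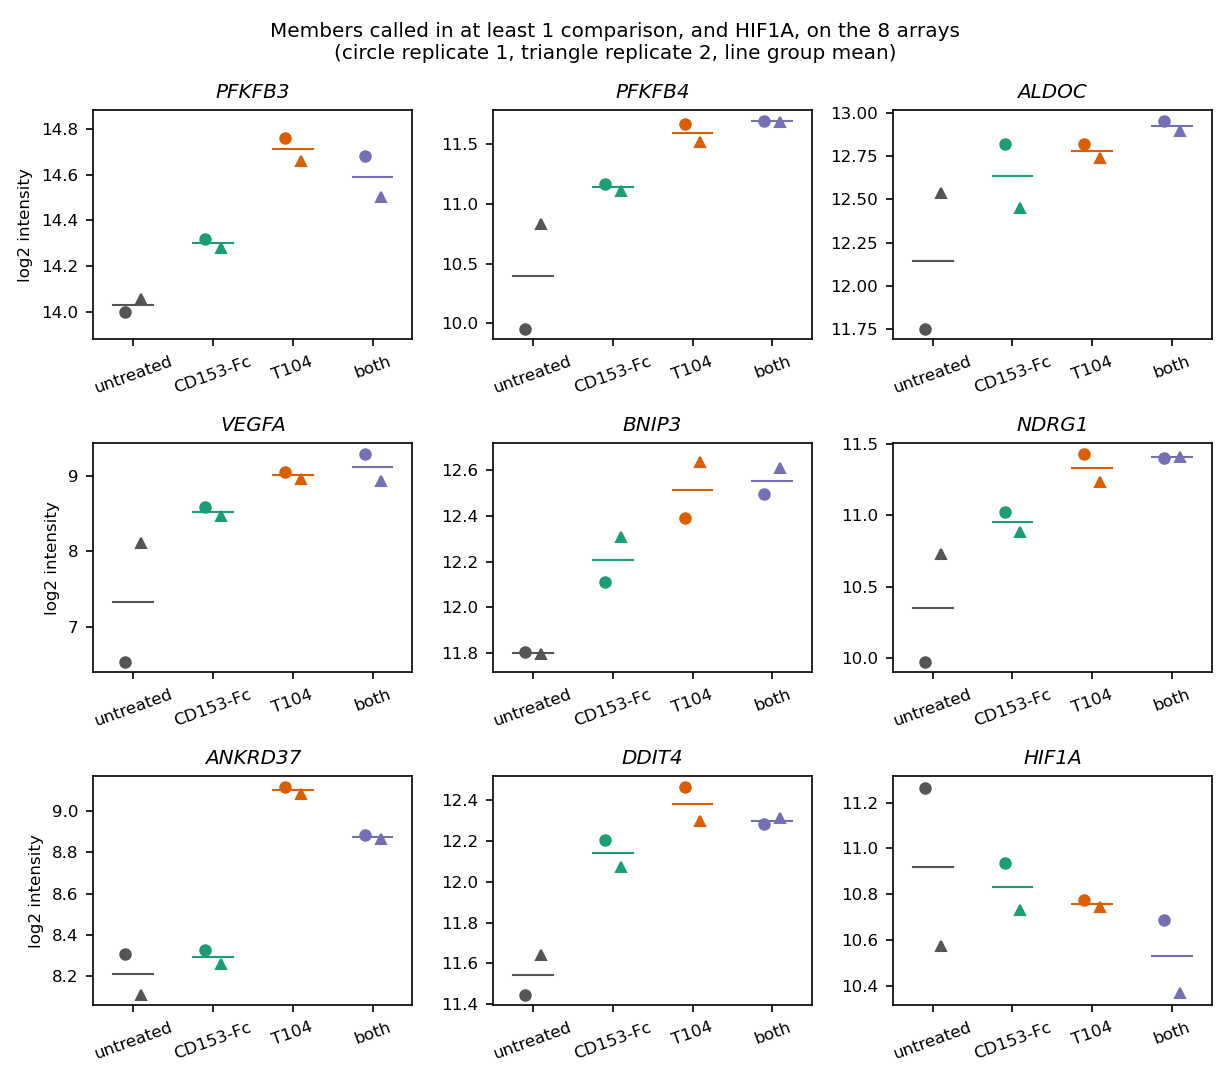
Log2 intensity (vertical axis) of the 8 genes called in at least 1 comparison, and of HIF1A, in the 4 groups; circles are replicate 1, triangles replicate 2 and lines group means. In VEGFA, PFKFB4, ALDOC and NDRG1 the untreated triangle lies well above the untreated circle, while BNIP3, PFKFB3, DDIT4 and ANKRD37 have untreated arrays close together.

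Promoter sequences are shown for 4 of the called genes because HIF binds a short core motif in DNA, so a reader can see where such letters lie. The windows run from 250 bases before to 50 bases after the gene start, from RefSeq on GRCh38.p14, and 32 of the 35 genes matched the table. Capitals mark every ACGTG or GCGTG on either strand, so that CACGC is GCGTG read on the other strand and CACGTG holds ACGTG on both. BNIP3 lies on the minus strand at chr10:131981874-131982173, DDIT4 on the plus strand at chr10:72273674-72273973, ANKRD37 on the plus strand at chr4:185396591-185396890 and PFKFB4 on the minus strand at chr3:48556754-48557053.
BNIP3: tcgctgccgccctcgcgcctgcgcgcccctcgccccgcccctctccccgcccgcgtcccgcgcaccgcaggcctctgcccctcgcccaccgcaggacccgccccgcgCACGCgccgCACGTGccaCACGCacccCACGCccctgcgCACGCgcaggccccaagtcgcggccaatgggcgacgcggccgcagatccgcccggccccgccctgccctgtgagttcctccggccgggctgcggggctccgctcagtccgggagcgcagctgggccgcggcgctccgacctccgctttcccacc
DDIT4: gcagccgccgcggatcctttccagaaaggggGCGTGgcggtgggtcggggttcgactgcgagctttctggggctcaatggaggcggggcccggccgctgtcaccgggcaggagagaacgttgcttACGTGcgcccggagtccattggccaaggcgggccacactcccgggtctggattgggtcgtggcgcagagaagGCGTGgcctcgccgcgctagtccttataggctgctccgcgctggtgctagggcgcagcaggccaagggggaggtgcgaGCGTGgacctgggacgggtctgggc
ANKRD37: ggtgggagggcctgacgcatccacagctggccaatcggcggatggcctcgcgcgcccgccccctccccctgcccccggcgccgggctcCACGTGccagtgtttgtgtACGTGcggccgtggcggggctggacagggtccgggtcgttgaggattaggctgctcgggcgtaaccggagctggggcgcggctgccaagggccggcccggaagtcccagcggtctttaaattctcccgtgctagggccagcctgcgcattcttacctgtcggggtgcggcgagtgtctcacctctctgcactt
PFKFB4: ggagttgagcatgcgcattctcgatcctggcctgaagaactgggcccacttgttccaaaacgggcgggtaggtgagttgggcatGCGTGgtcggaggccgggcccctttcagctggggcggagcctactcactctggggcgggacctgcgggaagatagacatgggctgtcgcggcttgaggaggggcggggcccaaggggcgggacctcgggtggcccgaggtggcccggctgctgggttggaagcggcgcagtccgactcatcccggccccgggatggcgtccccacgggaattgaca

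BNIP3 held 6 matches, DDIT4 4, ANKRD37 3 and PFKFB4 1. All 6 called genes in the table held a core, as did 16 of the 21 measured genes that were not called (76.2%) and 48.4% of all 27305 promoters of this length. A match is a run of letters and no record of binding. The cores are therefore present in most of these genes whether or not they were called.

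Of the 4 listed regulators of flux 3 were measured, and the 2 that passed belong to 1 enzyme family. PFKFB3 and PFKFB4 make and remove the sugar bisphosphate that activates phosphofructokinase, and both genes are known to respond to HIF. PFKFB3 read 14.00 and 14.06 untreated, 14.32 and 14.28 in the CD153-Fc pair, 14.76 and 14.66 in the T104 pair, and 14.68 and 14.50 in the combination pair. The 4 arrays given T104 were above the CD153-Fc arrays, which were above the untreated ones. PFKFB3 rose by 0.68 ± 0.12 with T104 (1.60-fold, adjusted p 0.00241) and by 0.56 ± 0.12 with both (adjusted p 0.0114), against 0.27 ± 0.12 with CD153-Fc (adjusted p 0.299). Its second, dimmer probe gave 0.78 with T104, 0.72 with both and 0.65 ± 0.15 with CD153-Fc (adjusted p over probes 0.0587).

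PFKFB4 read 9.95 and 10.83 untreated, 11.17 and 11.11 in the CD153-Fc pair, 11.67 and 11.51 in the T104 pair, and 11.70 and 11.68 in the combination pair. All treated arrays were above the untreated pair. PFKFB4 rose by 1.20 ± 0.22 with T104 (2.30-fold, adjusted p 0.00469) and by 1.30 ± 0.22 with both (adjusted p 0.00380), and stood 0.74 ± 0.22 higher with CD153-Fc (adjusted p 0.138). The T104 change was 0.76 without untreated replicate 1 and 1.64 without replicate 2. PDK3, a kinase that shuts pyruvate out of mitochondrial oxidation, stood at -0.04 with T104 and was not called.

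The 17 enzymes of the glycolytic steps were all measured. Under either single agent 0 of 17 passed in either direction, and under the combination 1 was higher and 0 lower. Their median change was -0.02 log2 for CD153-Fc, 0.00 for T104 and -0.03 for the combination, and single enzymes ranged from -0.45 to 0.63 with T104.

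ALDOC, the aldolase isoform typical of brain, was the 1 enzyme called. It read 11.75 and 12.54 untreated, 12.82 and 12.45 in the CD153-Fc pair, 12.82 and 12.74 in the T104 pair, and 12.96 and 12.89 in the combination pair. Only the CD153-Fc arrays overlapped the untreated ones. It rose by 0.78 ± 0.21 with both agents (1.72-fold, adjusted p 0.0469), and T104 alone gave 0.63 ± 0.21 (adjusted p 0.0810). The change with both was 0.39 without untreated replicate 1, which was not called, and 1.17 without replicate 2. The ALDOC call was lost in 13 of 17 alternatives.

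GAPDH, the dehydrogenase in mid-pathway often used as a reference gene, read 15.62 and 15.64 untreated, 15.73 and 15.52 in the CD153-Fc pair, 15.89 and 15.84 in the T104 pair, and 15.61 and 15.60 in the combination pair. The T104 arrays were the highest, by 0.23 ± 0.10 over untreated cells (adjusted p 0.178), and the others ran from 15.52 to 15.73. Other GAPDH probes detected on all 8 arrays gave 0.22 and 0.07 with T104, 0.20 and -0.11 with CD153-Fc, and 0.10 and 0.01 with both. None of these was called. LDHA, which makes lactate, read 15.77 and 15.50 untreated, 15.40 and 15.58 in the CD153-Fc pair, 15.40 and 15.52 in the T104 pair, and 15.47 and 15.39 in the combination pair. Its differences from untreated were -0.15 for CD153-Fc, -0.18 for T104 and -0.21 for the combination (adjusted p 0.595, 0.375 and 0.320), and untreated replicate 1 was its highest array. PFKM, the muscle form of phosphofructokinase, stood at -0.45 ± 0.21 with T104 (adjusted p 0.211). ALDOA depended on the probe. Its brightest gave -0.30 ± 0.12 with T104 and another, detected on all 8 arrays, -0.02 ± 0.15, neither called. The lower ALDOA value without untreated replicate 2, named below, is that of the brightest probe.

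HK2, the hexokinase isoform that HIF is known to induce, depended on the probe. The brightest probe gave 0.12 with T104 and 0.26 with both, neither called. Its other probe, detected on all 8 arrays, was higher by 0.86 ± 0.20 with T104 (adjusted p over probes 0.0175) and by 0.83 ± 0.20 with both (adjusted p 0.0301). What sets the HK2 probes apart was not tested.

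HIF1A and EGLN1 were the measured genes of oxygen sensing. HIF1A read 11.26 and 10.57 untreated, 10.94 and 10.73 in the CD153-Fc pair, 10.77 and 10.74 in the T104 pair, and 10.69 and 10.37 in the combination pair. Untreated replicate 1 was the highest array, and untreated replicate 2 was below all but 1 of the treated arrays. Its differences were -0.08, -0.16 and -0.39 (± 0.21) for CD153-Fc, T104 and the combination, with 0 calls. Other HIF1A probes detected on all 8 arrays gave -0.60, -0.42 and -0.37 (± 0.27), and 0.00, -0.11 and -0.30 (± 0.26), in the same order. None of these was called, and the order of the treatments depended on the probe. The values that follow are those of the brightest probe. With T104 the HIF1A value was 0.19 without untreated replicate 1 but -0.50 without replicate 2. EGLN1, which encodes the main oxygen-sensing hydroxylase, was detected on 2 arrays only, 1 untreated and 1 with CD153-Fc, and was not well above background on either array given T104 or both, so no fold is given.

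Between treated groups no member passed. T104 against CD153-Fc gave 0 of 30 genes in either direction, where 0.54% of all features were higher and 0.0687% lower, and 4 of 30 at an unadjusted p under 0.05 (8.31% of all features). Arrays lay apart with T104 higher for 14 genes and lower for 4 (21.8% and 25.2% of all features). The higher genes here, and those for both agents against CD153-Fc below, again include EGLN1, which was near background. The nearest to a call were ANKRD37, 0.81 ± 0.17 higher with T104 (1.76-fold, adjusted p 0.0542), and PFKFB3, 0.41 ± 0.12 higher (adjusted p 0.195). The PFKFB3 value is that of its brightest probe. The second probe, detected on all 8 arrays, stood 0.78 above untreated cells with T104 and 0.65 with CD153-Fc. The size of this PFKFB3 gap between antibody and ligand therefore depended on the probe. When either untreated array was left out of the fit, which takes the untreated gap out of the shared spread, 3 genes passed: ANKRD37, PFKFB3 and PFKFB4 (10%, against 2.12% of all features higher without replicate 1 and 2.11% without replicate 2). The same 3 passed with only the CD153-Fc and T104 arrays in the fit (2.4% of all features higher), so these calls depended on which arrays set the spread. ANKRD37 alone passed in 4 further settings. Both agents against CD153-Fc gave 0 higher and 0 lower (0.187% of all features were higher, 0 lower), with 4 at an unadjusted p under 0.05 (8.03% of all features) and arrays apart for 13 higher and 6 lower (22.6% and 22.8%). Both agents against T104 gave 0 higher and 0 lower, as 0 of all features passed, with 2 at an unadjusted p under 0.05 (4.1% of all features) and arrays apart for 3 higher and 5 lower (20.3% and 18.3%).

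The interaction asks whether the response to both agents equals the sum of the single responses on the log2 scale. None of the 30 genes passed in limma (0.52% of all features were higher and 0.815% lower), and 2 had an unadjusted p under 0.05 (12.3% of all features). These were DDIT4, at -0.68 ± 0.20 (adjusted p 0.149), and PFKFB3, at -0.39 ± 0.16 (adjusted p 0.345). Without untreated replicate 2, 3 genes (KDM3A, LDHB and PKM) were called higher and 5 (ALDOC, DDIT4, NDRG1, PFKFB4 and VEGFA) lower, in a fit that called 7.92% of all features higher and 8.99% lower.

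The untreated arrays were themselves apart for a share of these genes near that of all features. Of the 29 genes detected on both untreated arrays (all but EGLN1), replicate 1 minus replicate 2 exceeded 0.5 log2 in either direction for 8 (27.6%), beside 23.8% of the features so detected, and for 0 of 29 in each treated group. The gap was -1.57 for VEGFA, -0.88 for PFKFB4, -0.79 for ALDOC, -0.76 for NDRG1 and -0.57 for PFKM. It was 0.72 for PKM, 0.69 for HIF1A and 0.52 for KDM3A. For VEGFA the value in untreated replicate 1 was near background. Of the 8 genes that treatment raised, VEGFA, PFKFB4, ALDOC and NDRG1 were lower in untreated replicate 1 by more than 0.5. They were called against these same arrays, and the share of all features with a gap in that direction was not taken. Nothing particular to the raised genes is read from this. The median absolute gap of the 29 genes was 0.27, and that of the features so detected 0.28.

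**Figure D3:**
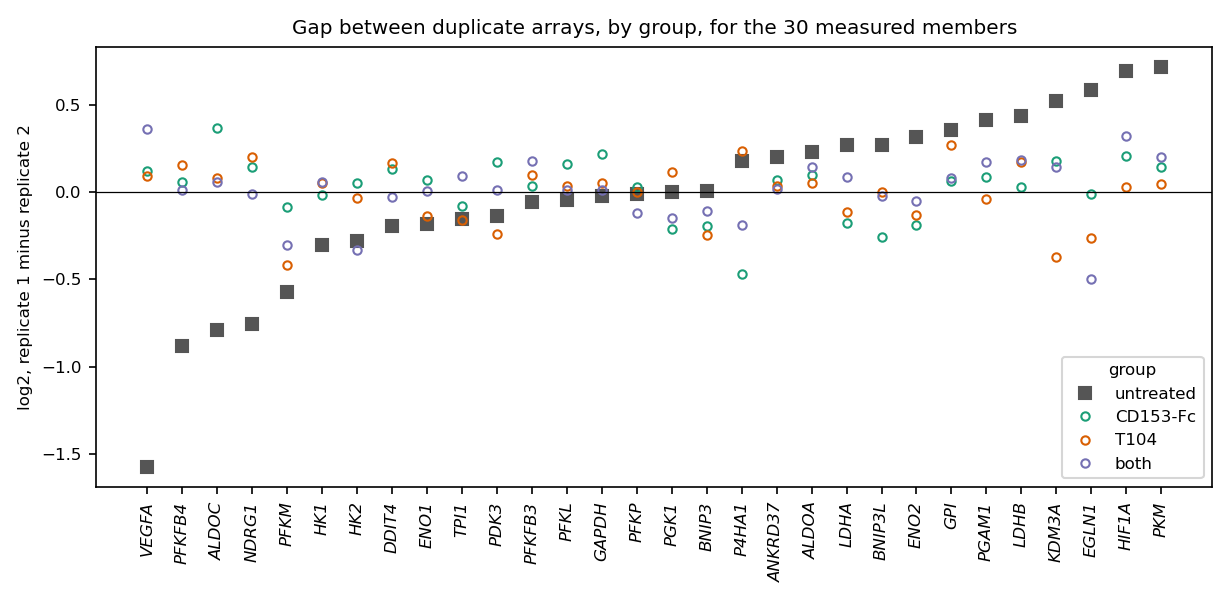
Replicate 1 minus replicate 2 (log2, vertical axis) for the 30 measured genes, ordered by the untreated gap (grey squares), beside the gaps of the 3 treated groups (open circles). Untreated gaps run from -1.57 for VEGFA to 0.72 for PKM, while the treated gaps all lie within 0.5 of 0, and those of EGLN1, detected on 2 arrays only, are against background.

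Leaving out untreated replicate 1 gave 9 genes higher and 1 lower with T104 (6.21% and 7.3% of all features), P4HA1 joining the 7 and PFKM being the lower one. The ninth was EGLN1, which was below detection on every array of that comparison, so this call sets background against background and is not counted as a rise. Leaving out replicate 2 gave 8 higher and 5 lower (17.1% and 16.5% of all features), ALDOC joining the 7 and ALDOA, HIF1A, KDM3A, LDHB and PKM being lower. With both agents the counts were 8 higher and 0 lower (4.46% and 3.49% of all features) and 8 higher and 6 lower (17.3% and 15.5%). With CD153-Fc they were 0 and 0 (1.92% and 0.707% of all features) without replicate 1, and 6 higher and 4 lower (14% and 11.8%) without replicate 2. The 7 calls with T104 were made without either untreated array, whereas of these fits calls with CD153-Fc were made only in the one without untreated replicate 2. Leaving out a T104 array ended more of the calls: without replicate 1 BNIP3 and PFKFB3 passed (2.02% of all features higher), and without replicate 2 DDIT4 and PFKFB3 (1.84%). With only the untreated and T104 arrays in the fit ANKRD37, DDIT4 and PFKFB3 passed (2.31% of all features higher), and PFKFB3 passed with T104 in all 17 alternatives. For both agents 0 genes passed without combination replicate 1 (1.37% of all features higher), 1, PFKFB3, without replicate 2 (1.51%), and 0 with only the groups compared (1.33%).

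**Figure D4:**
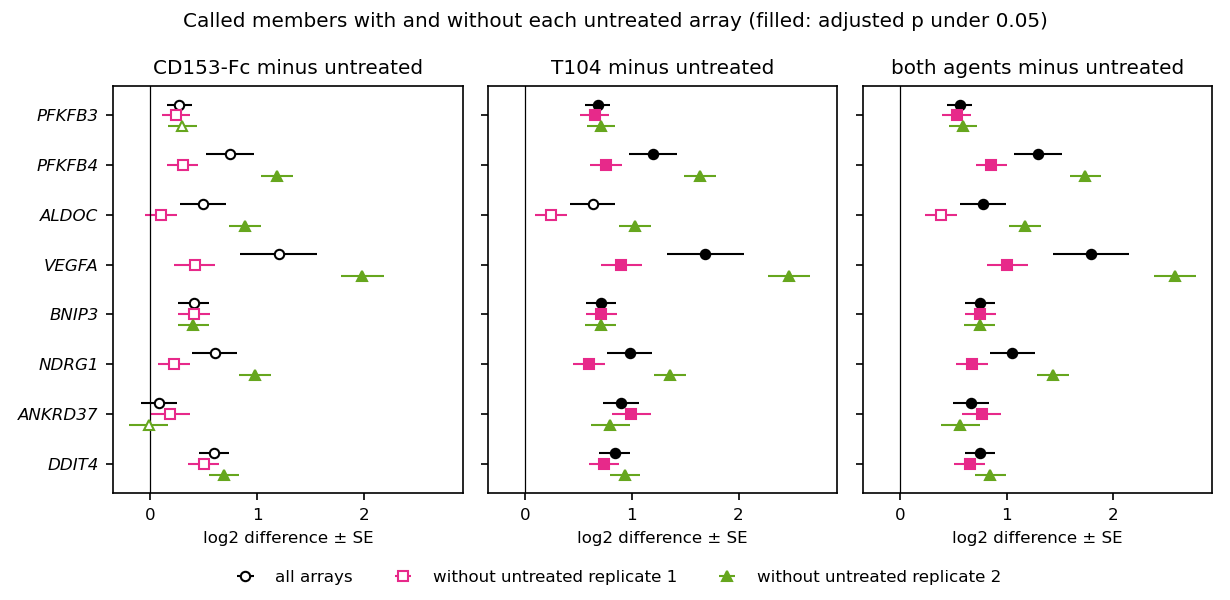
Log2 difference from untreated cells (horizontal axis, ± SE) of the 8 called genes with all arrays (black circles), without untreated replicate 1 (pink squares) and without untreated replicate 2 (green triangles); filled symbols have an adjusted p under 0.05. VEGFA moves most, from 0.90 to 2.47 with T104, and BNIP3 stays at 0.71.

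Other genes of these pathways were read from 7 further lists. Of the glucose and lactate transporters 7 were measured, and 1 passed. SLC2A6, a glucose transporter family member, read 9.51 and 9.72 untreated, 10.85 and 10.96 in the CD153-Fc pair, 11.82 and 11.77 in the T104 pair, and 11.51 and 11.45 in the combination pair. The groups did not overlap, and T104 was the highest. SLC2A6 rose by 1.29 ± 0.15 with CD153-Fc (adjusted p 3.94e-04), by 2.18 ± 0.15 with T104 (4.54-fold, adjusted p 1.00e-06) and by 1.87 ± 0.15 with both (adjusted p 5.28e-06). T104 exceeded CD153-Fc by 0.89 ± 0.15 (adjusted p 0.0139), and the interaction was -1.60 ± 0.21 (adjusted p 0.00179). The calls against untreated cells were kept in all 17 alternatives.

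Of the other HIF targets 22 were measured, and RORA, BHLHE40 and P4HA2 rose with T104 and with both agents, where 5.11% and 3.82% of all features were higher. In this list 0 fell and 0 were called with CD153-Fc. RORA, a nuclear receptor, rose by 1.06 ± 0.17 with T104, and BHLHE40, a transcriptional repressor of the clock and of hypoxia responses, by 0.91 ± 0.13 (adjusted p 0.00144 and 5.74e-04). ANGPTL4, an inhibitor of lipoprotein lipase, was detected on both T104 arrays and no other, at least 1.79-fold above untreated cells. It entered the fit only through the group where it is high, so its call is not counted here. P4HA2, a collagen prolyl hydroxylase, rose by 0.53 ± 0.15 (adjusted p 0.0425), a call that was lost in 9 of 17 alternatives.

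Of the oxygen sensing genes and HIF subunits 9 were measured, and 1 rose with T104 and 2 with both. Over all features 5.11% and 3.82% were higher, so with 9 genes such counts say little about the list. EPAS1, which encodes the second HIF alpha subunit, read 11.43 and 11.72 untreated and 12.56 and 12.33 with T104, a rise of 0.87 ± 0.16 (adjusted p 0.00425). CUL2, the scaffold of the ligase that removes HIF alpha, rose by 0.58 ± 0.15 with both (adjusted p 0.0344), a call lost in 10 of 17 alternatives. In the list of pyruvate entry into mitochondria 8 genes were measured, and 1 was called lower with T104, where 5.41% of all features were. This was PDP1, a phosphatase that activates pyruvate dehydrogenase (adjusted p 0.0445). PDP1 was detected on 2 arrays only and on neither T104 array, so no fold could be given. The PDP1 call was lost in 10 of 16 alternatives. Among the 7 measured other glycolytic and bypass enzymes, 7 of the pentose phosphate pathway and 7 mTORC1 regulators, 0 passed with any treatment.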

How the data were processed

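Karpas299 RNA was measured on HumanHT-12 v3 arrays with 48797 probes each, 2 per group. The authors deposited unnormalized probe intensities on a linear scale with a detection p-value per probe and array, per the file headers. BeadStudio is named in the series design and GenomeStudio in the submitters' processing notes, with versions and any background subtraction not given in the sources used here. A second table deposited by the authors, of processed intensities, was linear and uncentred with column medians from 119.685 to 119.717; how it was equalized is not known, and it served as an alternative. Background was corrected from the detection p-values, an offset of 16 added, arrays quantile normalized and log2 taken, with limma 3.58.1 in R 4.3.3. Keeping probes detected on at least 2 arrays left 12543. Probes were named from the platform annotation (28093 had 1 symbol, 13 several, 20691 none), updated through RefSeq. All 8 arrays entered 1 limma model with a mean per group (eBayes with an intensity trend), 7 contrasts, and Benjamini-Hochberg adjustment over all features. A call is an adjusted p under 0.05. Precision is limited by having 2 arrays a group. The spread is shared by all groups, though the SD of the duplicate gap over all features was 0.45 log2 in untreated cells and 0.24, 0.23 and 0.26 in the treated groups, so an SE may understate the error of a comparison with untreated cells and overstate it among treated groups. The genes and lists were chosen with earlier results of these data known. Values on all arrays are given for genes called in any contrast, for HIF1A, GAPDH, LDHA and VEGFA, and for the 3 largest untreated gaps; from other lists, up to 4 called genes with T104 and 2 with CD153-Fc are named, and CUL2, HK2 and others outside this rule were named after their values were seen. Alternatives changed the background correction, normalization, filter, probe rule, trend, groups in the fit, a replicate block and each array in turn. The scripts were tested on simulated data in which each feature had the same spread in every group. That test therefore does not cover the wider spread of the untreated arrays.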

Additional observations from a re-analysis of the deposited data

Results flagged for a closer look

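For the brightest probe of PGK1, the glycolytic kinase that yields ATP, the arrays with and without T104 were ordered in opposite ways in the absence and presence of CD153-Fc. Its arrays read 12.92 and 12.92 untreated, 13.11 and 12.996 with T104, 13.08 and 13.29 with CD153-Fc, and 12.93 and 13.07 with both. Every T104 array was above the untreated arrays, by 0.14 on average, and every array given both was below the CD153-Fc arrays, by -0.18. Neither difference passed in limma (adjusted p 0.560 and 0.795), and neither did the interaction, at -0.32 ± 0.19 log2 (adjusted p 0.536). The other PGK1 probe, detected on all 8 arrays, went the other way in its group means. Relative to untreated cells, T104 stood at -0.10 ± 0.13, while the ligand stood at 0.01 and the combination at 0.03. None of these was called. The flagged order therefore depended on the probe, and what sets the PGK1 probes apart was not tested.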

How the results depend on the processing

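The 7 genes higher with T104 remained called without background correction, with median scaling, with the authors' table, with all-array or no detection filters, with the mean of probes and without the trend. Of all features, between 1.03% (no filter) and 5.51% (median scaling) were higher with T104 in these settings. With only the groups of the contrast in the fit, 3 passed with T104 (ANKRD37, DDIT4 and PFKFB3), 0 with both agents, 3 for T104 against CD153-Fc (ANKRD37, PFKFB3 and PFKFB4) and 1 for both against CD153-Fc (PFKFB4). T104 against CD153-Fc gave 1 (ANKRD37) without background correction, with the authors' table, with the mean of probes and without the trend. Leaving out 1 array gave 2 to 9 genes higher and 0 to 5 lower with T104, 0 to 8 and 0 to 6 with both, 0 to 6 and 0 to 4 with CD153-Fc, 0 to 3 higher for T104 against CD153-Fc, 0 to 4 higher for both against CD153-Fc, and 0 to 3 higher and 0 to 5 lower for the interaction. Without T104 replicate 1, 2 genes passed (BNIP3 and PFKFB3), without T104 replicate 2, 2 (DDIT4 and PFKFB3), without combination replicate 1, 0, and without combination replicate 2, 1 (PFKFB3). These fits have fewer arrays. Values near 0 changed sign. GAPDH with CD153-Fc was 0.058 with median scaling and 0.025 with the mean of probes, and ran from -0.12 to 0.10 as single arrays were left out. With both agents GAPDH was 0.030 with median scaling and 0.028 with the mean of probes. With single arrays left out, HIF1A ran from -0.43 to 0.26 with CD153-Fc (0.019 without CD153-Fc replicate 2) and from -0.50 to 0.19 with T104, and ANKRD37 with CD153-Fc from -0.017 to 0.18. Over all features, calls with CD153-Fc, T104 and both went from 140, 1071 and 679 to 33, 399 and 180 with only the groups of the contrast, and to 2624, 3419 and 3345 without untreated replicate 2. For CD153-Fc they were 92 with no filter and 88 with a replicate block. Leaving out 1 array they ran from 37 to 2624 with CD153-Fc, 286 to 3419 with T104 and 188 to 3345 with both, from 10 to 369 (62 with all arrays) for T104 against CD153-Fc, 1 to 262 (19) for both against CD153-Fc, 0 to 62 (0) for both against T104 and 26 to 1722 (136) for the interaction. With only the groups of the contrast the treated comparisons gave 412, 198 and 30, with probes detected on all arrays T104 and both against CD153-Fc gave 41 and 9, without the trend both against CD153-Fc gave 11 and the interaction 90, and with no filter the interaction gave 83. With the replicate block 7 members passed with T104 and 7 with both (ALDOC lost), where 4.34% and 3.15% of all features were higher. Replicate differences correlated between groups at -0.0987 to 0.00719, so the numbers were not taken to pair the arrays. The cause of these shifts was not tested. Blocking on slide was not run, as the headers used here give none. For EGLN1, near background, neither a fold nor a bound is given, and the highest count with T104 includes it although it was below detection on the arrays compared.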
